A study of Mus musculus with 6 samples.

Results

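Mucins and partner genes of the ocular surface glycocalyx were followed in mouse corneas after open-field blast injury (OFBI). The genes were taken by symbol from the count tables. They are the membrane mucins Muc1, Muc4, Muc15, Muc16 and Muc20, the secreted mucin Muc5ac, the lectin gene Lgals3, the enzyme gene Galnt3 and the conjunctival secretory genes Fcgbp and Agr2, which makes 10 of 22007 gene symbols. All 10 were listed in every table. The tested corneas came from male C57BL/6J mice that were awake when a single C-4 charge of 350 g went off 3 m away, and the corneas were taken 12 months later. Naive corneas came from male C57BL/6J mice carrying the same 12-month label, with no blast in their labels. Each group had 3 libraries, and every library was made from pooled corneas. The number of corneas per pool is not given in the sources used here.

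Membrane mucins are long, heavily O-glycosylated proteins that stand on the apical membrane of corneal and conjunctival epithelium and make up most of its glycocalyx. Galectin-3, the product of Lgals3, binds the sugars of these mucins and links them into a barrier at the cell surface. Goblet cells of the conjunctiva add the gel-forming mucin Muc5ac to the tear film, and polypeptide GalNAc transferases such as Galnt3 start the O-glycan chains.

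The OFBI libraries held 1173472 to 3410476 estimated counts and the Naive libraries 41971752 to 47809779, so depth followed group and its part in the results cannot be told apart from that of the blast. OFBI replicate 3 was the shallowest. About 4 deposited counts appear to stand for 1 sequenced fragment, as read from the values. Levels are given as CPM (counts scaled to the library total) with TMM scaling (a library size correction). All 10 corneal epithelium markers examined were detected in both groups, and their sum ran from 61370 to 79852 CPM in OFBI libraries against 31261 to 32505 CPM in Naive libraries. The 10 lymphocyte markers summed to 35.2 to 203.9 CPM in OFBI and 6.94 to 8.75 CPM in Naive libraries, and the 10 hepatocyte markers to 133 to 985 CPM in OFBI and 19.8 to 29.7 CPM in Naive libraries. Of 6 lymphocyte markers tested 4 were higher and none lower, and of 4 hepatocyte markers tested all were higher, beside 8.41% of all genes. Some passed the low-count filter only through their OFBI libraries, such as Tat at 0, 0.108 and 0.264 CPM in Naive replicates 1, 2 and 3. A marker near 0 in Naive libraries could be tested only where it was high in OFBI, so these counts are no test of the lists. Of 7 stromal markers tested, Col1a1 and Col5a1 were higher and Dcn and Ptgds lower. Their median log2 fold change was -0.77, beside -0.20 over all genes tested. The list sum was 3351 to 5056 CPM in OFBI and 1110 to 1409 CPM in Naive libraries. Most of that sum was Col1a1, at a mean of 3398 CPM in OFBI and 725 CPM in Naive corneas, so it does not stand for the list. Of 5 corneal endothelium markers tested, Slc4a11 was lower, at 15.4 CPM in OFBI and 81.1 CPM in Naive corneas. The part of these other transcripts in the mucin results was not tested.

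The membrane mucin genes Muc4 and Muc20 fell in OFBI corneas, 2.97-fold and 4.01-fold against Naive corneas. Galnt3 was 1.60-fold lower. Muc1 and Muc15 had log2 fold changes of -1.04 and -1.03 without passing the test, while the libraries of Lgals3 and Fcgbp overlapped between the groups. Muc16, Muc5ac and Agr2 lay at or under what the OFBI depth could detect. Of the 8 members that passed the low-count filter, 4 were called lower and 0 higher (quasi-likelihood test of edgeR, p adjusted over all genes by Benjamini-Hochberg, below 0.05). Over all 13941 genes tested, 10.4% were called lower and 8.41% higher. At an unadjusted p below 0.05 by edgeR, 5 members were lower and 0 higher, beside 4589 of all 13941 genes in either direction. DESeq2 (with Muc1 in place of Agr2) and limma-voom each called 4 lower and 0 higher. DESeq2 called 13.1% of all genes lower and 13.3% higher, and limma-voom 8.95% lower and 7.31% higher. The median log2 fold change of the 8 was -1.04, beside -0.20 over all genes. Of the 7 members with counts in any OFBI library 3 were lower, beside 5.37% of the 13110 genes of that kind. In bulk tissue, fewer cells of a type and less RNA per cell cannot be told apart.

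**Figure D1:**
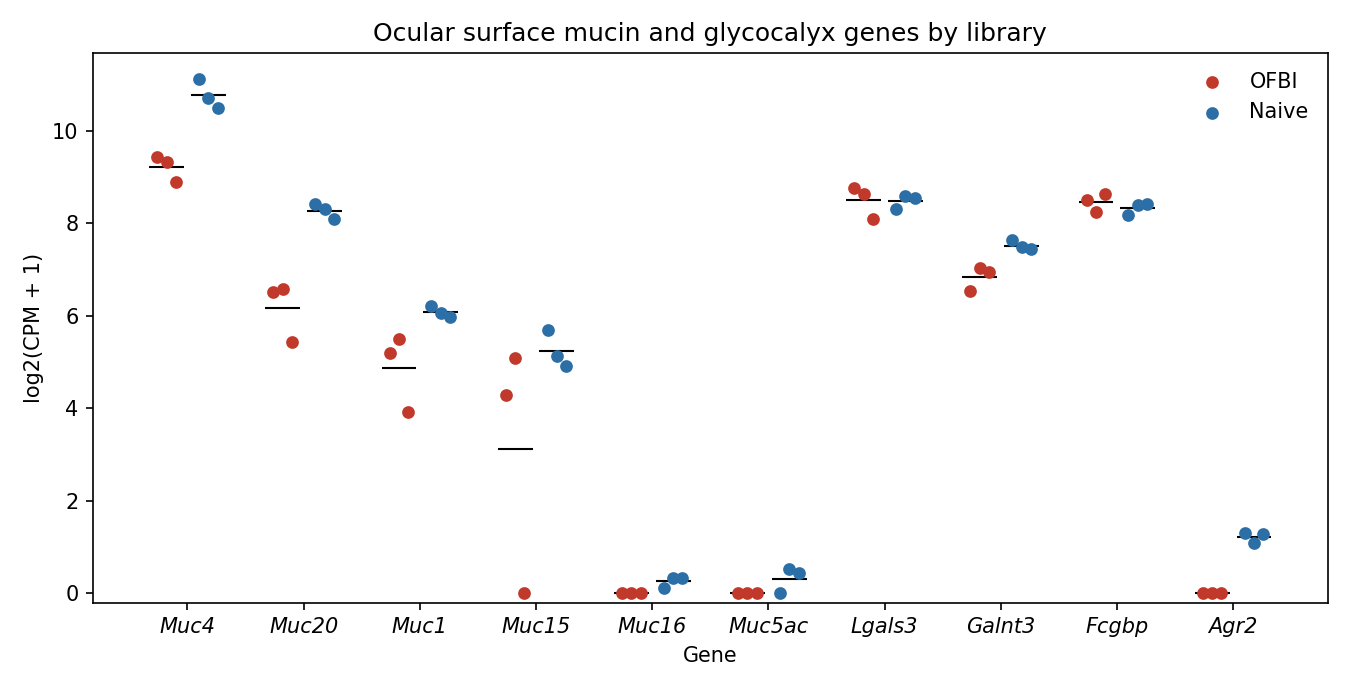
Level of each gene in each library, as log2(CPM + 1), with OFBI libraries left (red) and Naive libraries right (blue) and a bar at the group mean of 3 libraries. Muc4, Muc20, Muc1 and Galnt3 show OFBI libraries entirely below Naive libraries, Lgals3 and Fcgbp overlap, and Muc16, Muc5ac and Agr2 sit at 0 in OFBI.

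Muc4 encodes a large membrane mucin whose EGF-like domains can bind the receptor ErbB2. It lies on chromosome 16 from 32735886 to 32782391 (GRCm38). Its level was 686, 636 and 474 CPM in OFBI replicates 1, 2 and 3, against 2228, 1663 and 1445 CPM in Naive replicates 1, 2 and 3. Every OFBI library lay below every Naive library, and the groups did not come near each other. The means were 599 ± 111 CPM in OFBI and 1779 ± 404 CPM in Naive corneas (SD, n = 3 each), which gave -1.57 as log2 fold change (SE 0.21, 95% interval -2.08 to -1.06, edgeR adjusted p = 0.0099). Without Naive replicate 1, the highest library, it was -1.34 (edgeR adjusted p = 0.0527), and without Naive replicate 2 it was -1.58 (edgeR adjusted p = 0.0604). With either library left out, DESeq2 and limma-voom still called Muc4 lower.

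Muc20 encodes a membrane mucin known as a binding partner of the receptor MET. It lies next to Muc4, from 32777419 to 32797435 on the other strand of chromosome 16. Its level was 90.0, 95.1 and 42.1 CPM in OFBI replicates 1, 2 and 3, against 341, 315 and 272 CPM in the Naive replicates. The groups did not overlap, and OFBI replicate 3 was the lowest library, resting on 45 deposited counts. The mean was 75.7 ± 29.2 CPM in OFBI and 309 ± 34.5 CPM in Naive corneas (SD, n = 3 each), with -2.004 as log2 fold change (SE 0.29, 95% interval -2.70 to -1.31, edgeR adjusted p = 0.0111). Without OFBI replicate 3 it was -1.75 (edgeR adjusted p = 0.00271). Without Naive replicate 1, 2 or 3 the adjusted p of Muc20 by edgeR was 0.0590, 0.0658 and 0.0531, in fits where edgeR called 106, 0 and 104 of all genes, while DESeq2 and limma-voom called Muc20 lower each time.

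The exons of Muc4 and Muc20 share 627 bases on opposite strands, 5.33% of the Muc4 and 15.6% of the Muc20 exon length. The library kit keeps strand, but the strand setting of the counting is not given in the sources used here. At the mean Muc4 coverage these bases would hold 31.9 CPM in OFBI and 94.9 CPM in Naive corneas, or 42.2% and 30.7% of the Muc20 level. How far Muc4 reads entered the Muc20 counts was not tested. Muc4 counts exceeded Muc20 counts by 7.63, 6.69 and 11.3 times in OFBI replicates 1, 2 and 3 and by 6.54, 5.28 and 5.31 times in the Naive replicates, so the ratio differed less between the groups than either level did.

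Muc1 encodes the short membrane mucin of most wet epithelia. It measured 35.6, 44.5 and 14.03 CPM in OFBI replicates 1, 2 and 3, against 72.6, 66.0 and 62.1 CPM in the Naive replicates. All OFBI libraries lay below all Naive libraries, as they did for 29.9% of all genes tested, and OFBI replicate 3 was far below the other OFBI pools. The log2 fold change was -1.04 (SE 0.36, 95% interval -1.89 to -0.19), which did not pass the adjusted threshold (edgeR adjusted p = 0.0886). Without OFBI replicate 3 it was -0.75 and passed (edgeR adjusted p = 0.0255), and DESeq2 on all libraries called it (adjusted p = 0.0293). This mucin therefore passed or missed the threshold with the tool and with 1 library.

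Muc15, a further membrane mucin, had 60, 103 and 0 deposited counts in OFBI replicates 1, 2 and 3, against 2553, 1582 and 1323 in the Naive replicates. These are 18.5, 33.0 and 0 CPM in OFBI and 50.4, 34.1 and 29.1 CPM in Naive libraries. The groups overlapped, since OFBI replicate 2 lay above Naive replicate 3. A count of 0 in OFBI replicate 3 allows up to 11.2 CPM, taking 12 deposited counts (3 fragments) as the floor of 1 library and covering counting error only. The log2 fold change of -1.03 had a wide 95% interval of -2.91 to 0.84 (edgeR adjusted p = 0.416), so this depth shows neither a fall nor an unchanged level. It was -2.79 by limma-voom and -0.57 without OFBI replicate 3, and neither passed. Its exons share 61 bases with the opposite-strand gene Ano3, 1.71% of the Muc15 exon length.

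Muc16 encodes the largest membrane mucin of the ocular surface. It was at 0 in every OFBI library and had 4, 12 and 12 deposited counts in the Naive replicates, a mean of 0.201 CPM. The secreted mucin gene Muc5ac was at 0 in the OFBI libraries and had 0, 20 and 16 deposited counts in the Naive replicates, a mean of 0.261 CPM. Neither passed the filter. Against the OFBI floor of 1.62 CPM, which is 12 deposited counts over the summed OFBI libraries, no difference could be detected for either gene.

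**Figure D2:**
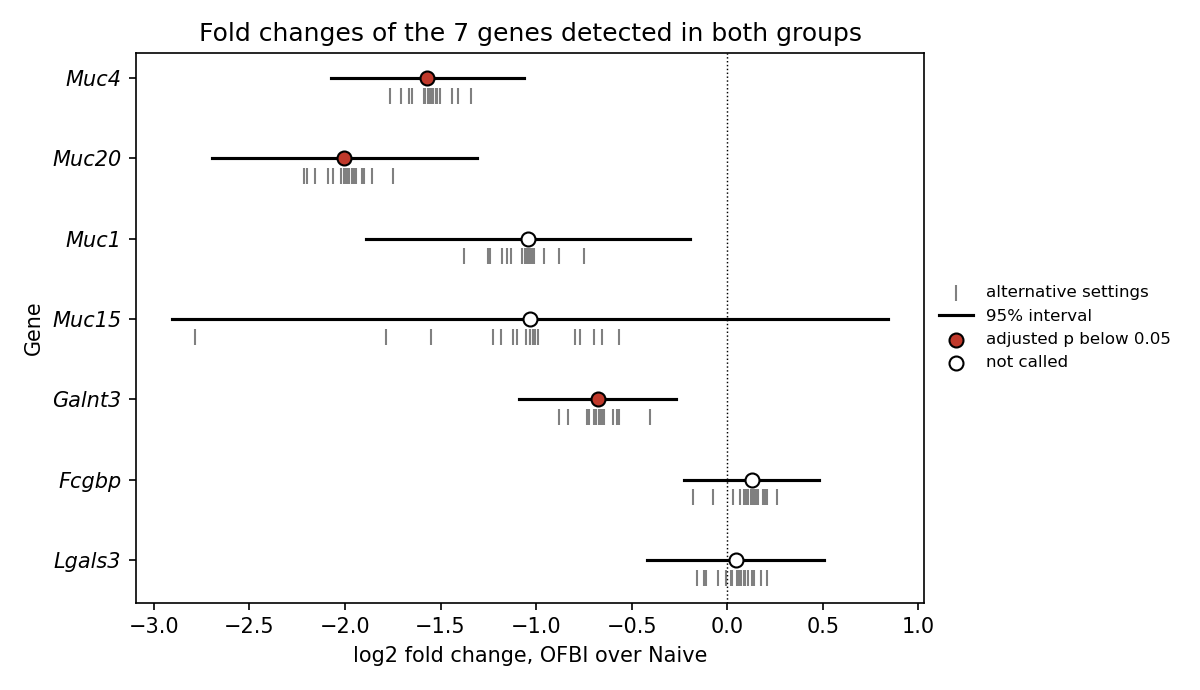
Log2 fold change of OFBI over Naive for the 7 genes with counts in both groups, with circles at the edgeR estimate (red where the adjusted p is below 0.05), lines for its 95% interval, and grey ticks for the same value under the alternative settings. The intervals of Muc4, Muc20, Galnt3 and Muc1 lie wholly left of 0, that of Muc15 crosses it, and Lgals3 and Fcgbp are centred near 0.

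No difference in Lgals3 passed the test. Galectin-3 binds mucin O-glycans at the apical surface, and macrophages make it as well. Its level was 432, 395 and 271 CPM in OFBI replicates 1, 2 and 3, against 314, 383 and 372 CPM in the Naive replicates. The groups overlapped, with OFBI holding both the highest and the lowest library. Its value of 0.04 on the log2 scale (SE 0.20, edgeR adjusted p = 0.901) turned to -0.16 when library size was the only scaling and to -0.11 with a GC and length trend removed. Its 95% interval of -0.42 to 0.51 covers folds from 0.749 to 1.42 and thus leaves out a fall of the size seen in Muc4. The 10 macrophage markers, as a second source of Lgals3, summed to 158 to 255 CPM in OFBI and 226 to 253 CPM in Naive libraries. Of 9 tested, 2 were higher (C1qa and C1qb) and none lower, beside 8.41% and 10.4% of all genes.

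Within a library the ratio of 2 genes needs no scaling. Muc4 counts were 1.59, 1.61 and 1.75 times those of Lgals3 in OFBI replicates 1, 2 and 3, against 7.10, 4.35 and 3.88 times in the Naive replicates. For Muc20 the ratio to Lgals3 was 0.208, 0.241 and 0.155 in OFBI, against 1.09, 0.824 and 0.732 in Naive libraries. Both ratios separated the groups without overlap, and the mucin transcripts were scarcer beside the lectin transcript in each OFBI pool. These ratios restate the levels above from the same libraries and are not separate support. For Galnt3 the ratio to Lgals3 was 0.211, 0.328 and 0.452 in OFBI, against 0.634, 0.462 and 0.462 in Naive libraries. For Fcgbp it overlapped, at 0.833, 0.760 and 1.45 in OFBI, against 0.913, 0.877 and 0.914 in Naive libraries. With 3 against 3 libraries no exact permutation test can go below 0.10, so no p is given.

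Galnt3 starts mucin-type O-glycosylation by adding the first GalNAc to serine and threonine residues. The gene lies on chromosome 2 from 66082766 to 66124994. Its level was 91.2, 129 and 123 CPM in OFBI replicates 1, 2 and 3, against 199, 177 and 172 CPM in the Naive replicates. No OFBI library reached the lowest Naive library. The means of 114 ± 20.3 CPM in OFBI and 183 ± 14.4 CPM in Naive corneas (SD, n = 3 each) gave -0.68 as log2 fold change (SE 0.17, edgeR adjusted p = 0.039). This call was lost with a GC and length trend removed, at -0.40 (edgeR adjusted p = 0.142), when counts of the Naive pools were thinned to the total of OFBI replicate 1 (edgeR adjusted p = 0.0659), when every library was brought down to OFBI replicate 3 (edgeR adjusted p = 0.0655), without a low-count filter (edgeR adjusted p = 0.0528) and without OFBI replicate 1 (edgeR adjusted p = 0.0597). It was also lost without Naive replicate 1, 2 or 3, where the log2 fold change was -0.58, -0.66 and -0.68 (edgeR adjusted p = 0.185, 0.180 and 0.144).

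Fcgbp encodes an IgG Fc-binding protein that goblet cells secrete together with mucins. Its cell source in these corneas was not tested, and the goblet cell genes Muc5ac, Spdef, Tff1 and Clca1 lay near 0 in both groups. Its level was 360, 300 and 393 CPM in OFBI replicates 1, 2 and 3, against 287, 335 and 340 CPM in the Naive replicates. The groups overlapped, and the value on the log2 scale was 0.13 (SE 0.15, 95% interval -0.23 to 0.48, edgeR adjusted p = 0.603), turning to -0.08 with library size as the only scaling and to -0.18 with a GC and length trend removed. Agr2 encodes a disulfide isomerase of the endoplasmic reticulum that folds mucins. It was at 0 in all OFBI libraries and had 1.46, 1.12 and 1.43 CPM in the Naive replicates. It was called lower (edgeR adjusted p = 0.0293), but its Naive mean of 1.34 CPM lay under the OFBI floor of 1.62 CPM. A difference in Agr2 was therefore not detectable at this depth, and the call was lost with DESeq2 (adjusted p = 0.0714) and without OFBI replicate 1 or 2 (edgeR adjusted p = 0.0612 and 0.0525).

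Levels of different genes were compared as CPM per kb of exon, which allows for gene length. In Naive corneas the order ran from Lgals3 at 192 ± 19.9 and Muc4 at 151 ± 34.4 CPM per kb to Muc20 at 76.8 ± 8.58, Galnt3 at 41.7 ± 3.29, Fcgbp at 30.6 ± 2.83, Muc1 at 28.5 ± 2.28 and Muc15 at 10.6 ± 3.12 CPM per kb (SD, n = 3 each). The libraries of Lgals3 and Muc4 overlapped there, as did those of Fcgbp and Muc1. In OFBI corneas Lgals3 stood at 197 ± 45.4 CPM per kb, far above Muc4 at 50.9 ± 9.41 CPM per kb, with no overlap (SD, n = 3 each). Fcgbp followed at 33.4 ± 4.49, then Galnt3 at 26.1 ± 4.65, Muc20 at 18.8 ± 7.26, Muc1 at 13.4 ± 6.68 and Muc15 at 4.81 ± 4.63 CPM per kb. From Fcgbp downward each gene overlapped with its neighbour in OFBI, so the order of neighbours is not resolved.

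**Figure D3:**
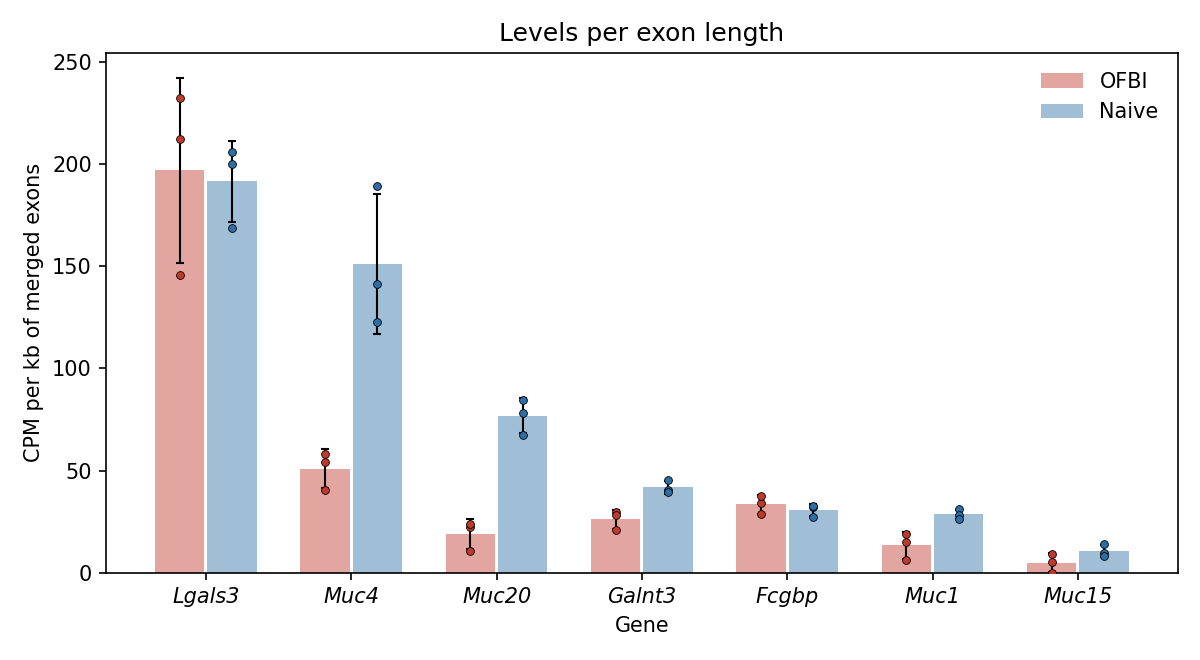
CPM per kb of merged exons for the 7 genes with counts in both groups, OFBI left (red) and Naive right (blue), with bars at the mean, error bars of 1 SD over 3 libraries and a point per library. Lgals3 is alike in both groups at 197 and 192 CPM per kb, while Muc4 stands at 50.9 in OFBI and 151 in Naive corneas.

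The promoters of Muc4 and Muc20, the 2 mucin genes called lower with counts in both groups, are shown beside that of Fcgbp, whose groups overlapped, so that they can be compared. Each is the 250 bases before the RefSeq gene start on GRCm38.p6, read 5′ to 3′ on the gene's strand. Bases shortly after that start lay in a GENCODE transcript of the gene for Muc4 and Muc20 but not for Fcgbp. The placing of the Fcgbp window is therefore less certain. Capitals mark the motif CACCC on either strand, the core bound by KLF factors, which act in corneal epithelium.
Muc4 (chr16:32735636-32735885, plus strand): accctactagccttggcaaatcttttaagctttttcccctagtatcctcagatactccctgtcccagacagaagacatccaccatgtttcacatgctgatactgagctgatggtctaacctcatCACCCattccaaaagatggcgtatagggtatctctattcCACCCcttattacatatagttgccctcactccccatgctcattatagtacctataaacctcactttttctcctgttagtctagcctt
Muc20 (chr16:32797436-32797685, minus strand): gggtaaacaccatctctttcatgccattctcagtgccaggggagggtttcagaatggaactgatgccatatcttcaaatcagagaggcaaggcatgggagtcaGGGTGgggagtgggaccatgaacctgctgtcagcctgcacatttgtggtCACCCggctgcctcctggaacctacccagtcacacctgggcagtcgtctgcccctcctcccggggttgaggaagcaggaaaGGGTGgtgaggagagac
Fcgbp (chr7:28070986-28071235, plus strand): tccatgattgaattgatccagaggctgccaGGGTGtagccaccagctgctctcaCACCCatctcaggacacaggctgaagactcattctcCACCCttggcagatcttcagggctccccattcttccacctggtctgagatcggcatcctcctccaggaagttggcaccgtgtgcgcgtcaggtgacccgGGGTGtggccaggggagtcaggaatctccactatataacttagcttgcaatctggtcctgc
CACCC occurred 2 times before Muc4 and 3 times before Muc20, against 4 times before Fcgbp. Of 32851 promoters of this length, 52.0% held it. GGAAG, an ETS factor core, was absent from the Muc4 window, occurred 1 time before Muc20 and 2 times before Fcgbp, and was held by 64.1% of promoters. Muc4 alone of these 3 had a TATAAA, found in 12.4% of promoters, and TGANTCA, an AP-1 core held by 6.75%, was in none of the 3. All motifs were searched on both strands, and these matches describe letters only. The GC content was 43.6% before Muc4 and 57.2% before Muc20, against 56.4% before Fcgbp and a median of 52.4% over all promoters.

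Genes around the mucins were described from 5 lists. Among other mucins and mucin-like genes, 9 of 15 present in the data were tested, with 0 higher and 1 lower by edgeR, beside 8.41% and 10.4% of all genes. With genes at 0 in OFBI set to their bound, the median log2 fold change was -0.33, beside -0.11 over all genes tested. That -0.33 is the bound of Muc13 itself and so is set by OFBI depth. With fitted values the medians were -0.66 and -0.20. DESeq2 called 2 of them lower and limma-voom 1, beside 13.1% and 8.95% of all genes, with 0 higher by either. At an unadjusted p below 0.05 edgeR gave 0 higher and 2 lower, beside 4589 of all 13941 genes in either direction. Muc13, a membrane mucin of gut epithelium, was at 0 in OFBI and had 2.19, 2.18 and 1.74 CPM in the Naive replicates. Its Naive mean of 2.04 CPM was 1.26 times the OFBI floor, which covers counting error only. Muc13 passed the low-count filter only through its Naive libraries, so its call is no test of the list. The call was lost with counts divided by 4 (edgeR adjusted p = 0.0752). The sialomucin gene Cd164 had 272, 315 and 19.6 CPM in OFBI against 429, 481 and 506 CPM in Naive libraries (edgeR adjusted p = 0.311), so OFBI replicate 3 stood far below the other OFBI pools. Without that library its log2 fold change was -0.70 (edgeR adjusted p = 0.0146). Parm1 had 64.3, 37.1 and 41.2 CPM in OFBI against 83.0, 80.0 and 74.0 CPM in Naive libraries, without overlap (edgeR adjusted p = 0.078), and passed by DESeq2 (adjusted p = 0.0291) and without OFBI replicate 1 (edgeR adjusted p = 0.0251).

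Among other enzymes of O-glycan synthesis, of 21 tested, 1 was higher and 0 lower by edgeR, beside 8.41% and 10.4% of all genes, with a median log2 fold change of 0.14 beside -0.20 over all genes. DESeq2 called 1 higher and 1 lower, beside 13.3% and 13.1% of all genes. By limma-voom 1 was higher and 0 lower, beside 7.31% and 8.95% of all genes. At an unadjusted p below 0.05 edgeR had 1 higher and 2 lower, beside 4589 of all 13941 genes in either direction. Galnt18, another GalNAc transferase gene, was higher at 534, 551 and 634 CPM in OFBI against 313, 289 and 302 CPM in Naive libraries. Its groups did not overlap, with 0.93 as log2 fold change (SE 0.12, edgeR adjusted p = 0.00979). Galnt4, with Galnt18 the most abundant of the list by CPM averaged over the 6 libraries, had 269, 281 and 195 CPM in OFBI against 340, 346 and 357 CPM in Naive libraries (edgeR adjusted p = 0.0874), and it passed by DESeq2 (adjusted p = 0.0191) and without OFBI replicate 3 (edgeR adjusted p = 0.0498).

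Other galectin genes gave 1 higher and 1 lower of 8 tested, beside 8.41% and 10.4% of all genes. Lgals1, which encodes galectin-1, was higher, at 28.7, 24.3 and 139 CPM in OFBI against 5.71, 6.66 and 5.22 CPM in Naive libraries (log2 fold change 3.40, SE 0.71, edgeR adjusted p = 0.024). OFBI replicate 3 carried most of the mean, and without it the log2 fold change was 2.17. Lgals12 was called lower, but at 1.60 CPM in Naive corneas it lay under the OFBI floor, and it is named after its value was seen. Lgalsl had 111, 83.6 and 95.4 CPM in OFBI against 134, 120 and 98.3 CPM in Naive libraries, with overlap (edgeR adjusted p = 0.346).

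Genes that anchor or shed the glycocalyx gave 2 higher and 1 lower of 15 tested, beside 8.41% and 10.4% of all genes, with a median log2 fold change of 0.05. DESeq2 called 3 higher and 2 lower, beside 13.3% and 13.1% of all genes. Slc9a3r1, a scaffold that joins membrane proteins to ezrin, was higher at 500, 482 and 796 CPM in OFBI against 252, 221 and 208 CPM in Naive libraries (log2 fold change 1.38, SE 0.22, edgeR adjusted p = 0.0137). The sheddase gene Adam10 was higher at 155, 181 and 298 CPM in OFBI against 99.7, 77.0 and 75.5 CPM in Naive libraries (log2 fold change 1.32, SE 0.27, edgeR adjusted p = 0.0235). In both genes the groups did not overlap and OFBI replicate 3 was the highest library. Ezr, which encodes the actin linker ezrin itself, had 837, 747 and 615 CPM in OFBI against 950, 871 and 842 CPM in Naive libraries (edgeR adjusted p = 0.245). The sialidase gene Neu2 was at 0 in OFBI with 3.05 CPM in Naive corneas, 1.89 times the OFBI floor, which covers counting error only. Neu2 passed the low-count filter only through its Naive libraries. Its call was lost without Naive replicate 3 (edgeR adjusted p = 0.114) and with counts divided by 4 (edgeR adjusted p = 0.0676).

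Most goblet cell genes lay near 0 in both groups. Of 20 goblet cell and secretory genes, 16 did not pass the filter, 15 were at 0 in every OFBI library and 7 in every Naive library, and the highest mean among the 16 was 0.515 CPM in OFBI and 0.168 CPM in Naive corneas. The defining genes Spdef, Tff1 and Clca1 had 0 CPM in OFBI, and Tff3 was at 0 in both groups. Muc5b, shared by this list and the mucin list, also had no OFBI count. Of the 4 tested, Creb3l1, a transcription factor of secretory cells, was higher at 29.1, 26.6 and 69.2 CPM in OFBI against 6.16, 5.37 and 4.03 CPM in Naive libraries (log2 fold change 2.97, SE 0.46, edgeR adjusted p = 0.0129). With all libraries none of the 4 was lower by edgeR, limma-voom or DESeq2, with 0 lower at an unadjusted p below 0.05 by edgeR. Over all genes edgeR called 8.41% higher and 10.4% lower. Without OFBI replicate 3, edgeR and DESeq2 each called 2 of the 4 lower. In those fits edgeR called 2065 and DESeq2 2772 of all 14911 genes lower. Bcas1 had 55.0, 45.5 and 5.61 CPM in OFBI against 108, 101 and 73.5 CPM in Naive libraries (edgeR adjusted p = 0.159). Without OFBI replicate 3 Bcas1 was among the 2 called lower, at -0.92 (edgeR adjusted p = 0.028). Pigr, named after its values were seen, had 0, 0 and 38.3 CPM in OFBI against 7.25, 6.64 and 6.23 CPM in Naive libraries, so OFBI replicate 3 alone held its OFBI counts. Without Naive replicate 1, 2 or 3, none of Galnt18, Lgals1, Slc9a3r1, Adam10 and Creb3l1 passed edgeR (adjusted p = 0.0538 to 0.109), while all 5 had an unadjusted p below 0.05 and passed DESeq2 and limma-voom.

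**Figure D4:**
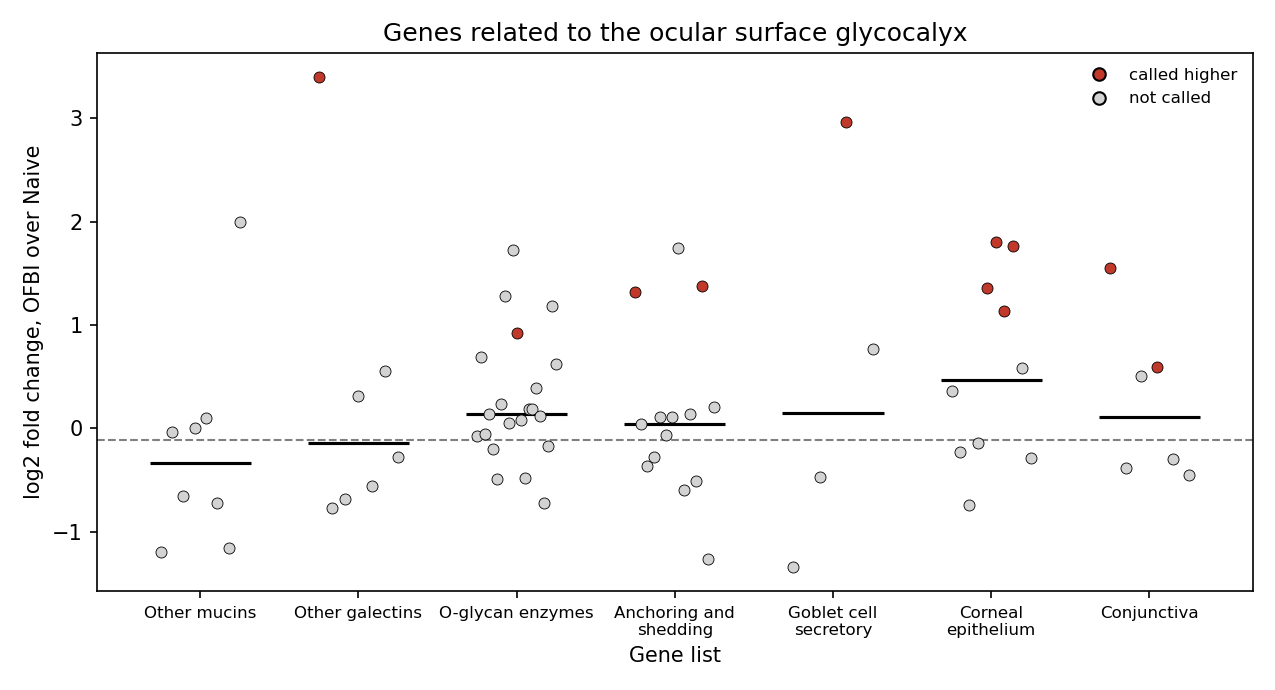
Log2 fold change of OFBI over Naive for each tested gene of 7 lists (points, red where called higher), with bars at list medians and a dashed line at the median of all genes tested, -0.11, all with genes at 0 in OFBI set to their bound. Muc13, Lgals12 and Neu2, which were at 0 in every OFBI library, are not drawn. The mucin list has the lowest median of the 7, at -0.33, which is the bound of Muc13 and so is set by OFBI depth.

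Some keratin markers of the epithelium were higher in OFBI corneas. Of 10 corneal epithelium markers, 4 were higher, the keratins Krt12, Krt5, Krt14 and Krt15, and none lower, with a median log2 fold change of 0.47. Of 6 conjunctival keratins, Krt4 and Krt13 were higher and none lower. Over all genes tested, 8.41% were higher and 10.4% lower. Krt12, the cornea-specific keratin, had 22860, 25083 and 28769 CPM in OFBI against 8869, 10025 and 11102 CPM in Naive libraries, without overlap. Per Krt12 count, Muc4 counts were 0.0300, 0.0253 and 0.0165 in OFBI, against 0.251, 0.166 and 0.130 in Naive libraries. Krt5, a basal keratin, averaged 26262 ± 7543 CPM in OFBI and 7734 ± 1055 CPM in Naive corneas (SD, n = 3 each). The part of these keratin levels in the mucin results was not tested.

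**Figure D5:**
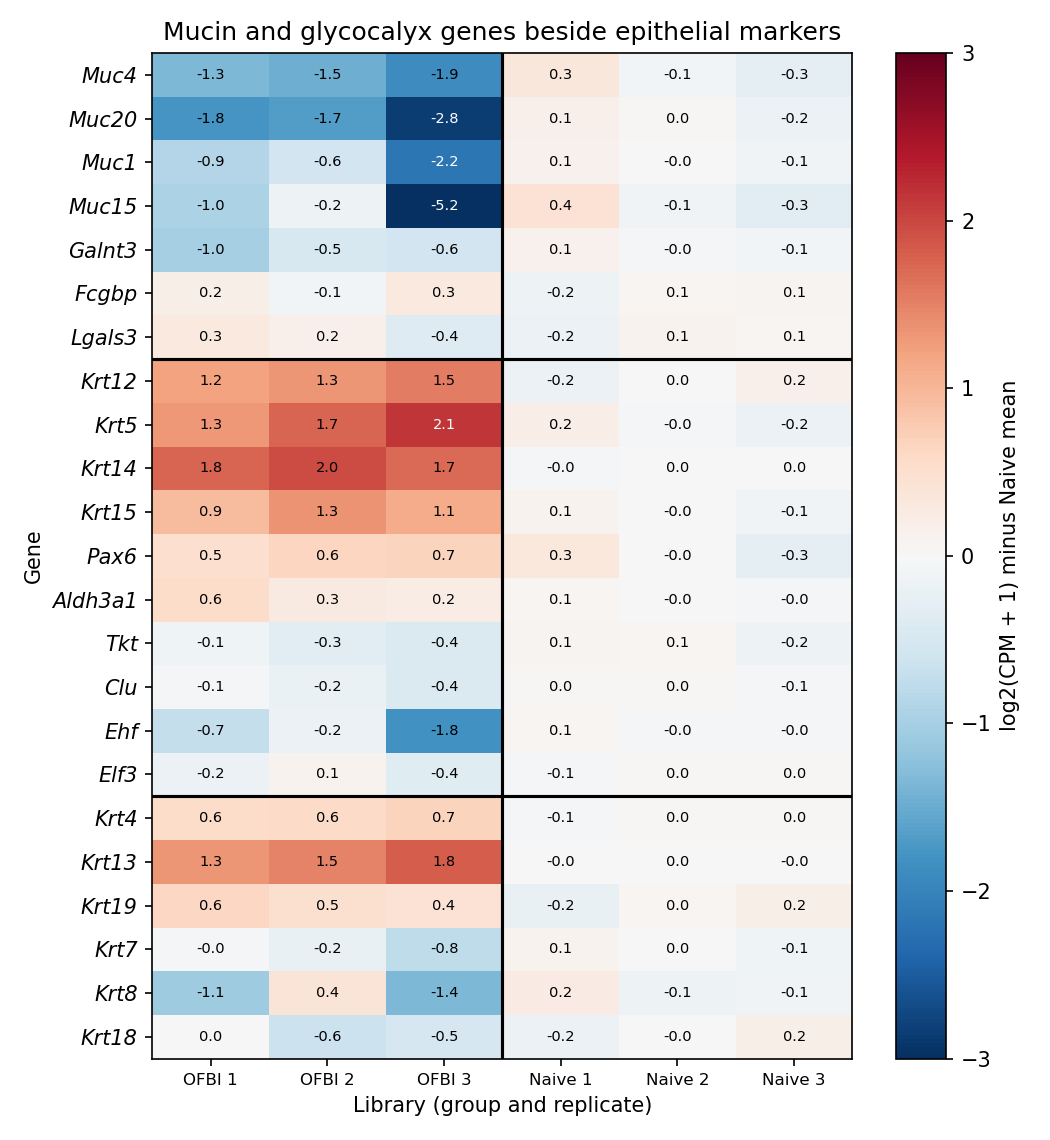
Level of each gene in each library as log2(CPM + 1) minus the mean of the Naive libraries, for the 7 mucin and glycocalyx genes with counts in both groups (top), 10 corneal epithelium markers (middle) and 6 conjunctival keratins (bottom), with OFBI libraries left and the colour scale ending at 3 either way. Muc4, Muc20 and Muc1 are negative in all 3 OFBI libraries, Krt12, Krt5 and Krt14 are positive there, and Muc15 reaches -5.2 in OFBI replicate 3, where it had no count.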

How the data were processed

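RNA-seq was done on 3 OFBI and 3 Naive pools of mouse corneas. The authors deposited 1 table of estimated counts per library, whole numbers not scaled for depth. Per the submitters' processing notes, FastQC, HISAT2, StringTie, DESeq2 and GRCm38 were used, while annotation, strand setting and multi-mapping rule were not given in the sources used here. Rows sharing a symbol were summed. All 6 libraries carry batch number 4, so no batch could be compared.

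The test was edgeR's, version 4.0.16 under R 4.3.3 (filterByExpr, TMM, quasi-likelihood, group as the only term, two-sided, Benjamini-Hochberg over all genes). DESeq2 1.42.0, limma-voom (limma 3.58.1), other scalings, filters, thinning, a GC and length trend fitted with mgcv 1.9.3, and leaving out libraries were alternatives, and DESeq2 and limma-voom without each library were added after seeing the data. The SE is the log2 fold change over the square root of F. The procedure was run on simulated data with changes placed only in genes above the median level, so recovery of low genes was not covered.

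Members and lists were chosen with earlier results of these data known. Beside members, the text names per list up to 3 called genes each way by p, and the 2 most abundant. Exon lengths and coordinates are from GENCODE mouse release 21 on GRCm38, which may not be the authors' annotation, and 10 members matched it. RefSeq promoters (GRCm38.p6) were found for 8. Floors are 12 deposited counts. Library pairs of a group differed beyond sampling noise. P-values measure the spread between these pools.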

Additional observations from a re-analysis of the deposited data

How the results depend on the processing

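Depth limits the low genes, since one under 1.62 CPM in Naive corneas cannot be shown to fall in OFBI. Muc4 and Muc20 kept their direction and an adjusted p below 0.05 under each scaling, filter and thinning tried, with log2 fold changes of -1.77 to -1.34 for Muc4 and -2.22 to -1.75 for Muc20 over 18 alternatives, and lost the edgeR call only where a Naive library was left out. Genes called higher numbered 1173 and became 1854 with DESeq2 and 191 at a threshold of 0.01. Genes called lower numbered 1446 and became 910 without a filter, 562 with Naive libraries thinned, 425 with all libraries thinned and 31 at a threshold of 0.01. Members called lower numbered 4 and became 2 with either thinning and 1 at a threshold of 0.01. Leaving out 1 library gave 0 to 2438 higher genes, 0 to 2891 lower genes and 0 to 5 lower members over edgeR, DESeq2 and limma-voom. No gene was called by edgeR without Naive replicate 2, with 2441 genes at an unadjusted p below 0.05, 1489 called by DESeq2 and 1566 by limma-voom, and no member was called by edgeR without Naive replicate 1 or 2. Library size as the only scaling moved the median of all genes from -0.20 to -0.40 and gave 866 higher and 2038 lower genes. The sign of uncalled genes turned for Lgals3 (-0.16 with library size only, -0.11 without the GC and length trend, -0.12 to 0.25 with a library left out), Fcgbp (-0.077 and -0.18 under those 2 settings) and Lgalsl (0.10 without the trend). With the replicate number as a block, 540 genes were higher, 253 lower and 2 members lower, Muc4 and Muc20, and Muc13 and Neu2 were not called (edgeR adjusted p = 0.274 and 0.209). Deviations of same-numbered libraries had correlations of -0.0175 to 0.00783, beside -0.0144 to 0.0219 for other pairs. Counting noise at the OFBI depth could hide a shared deviation, so these values do not settle whether the numbers pair the samples. Agr2, Muc13 and Neu2 gave no value under some of the alternatives, thinning included, where they did not pass the low-count filter. The cause of these changes was not tested.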
